A study of Mus musculus with 15 samples.

Results

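The genes described here encode 10 protein kinases of mitosis and of the DNA damage checkpoint. They were taken by name, among 55359 genes of the matrix. The Aurora kinases are Aurka and Aurkb, the Polo-like kinases are Plk1 and Plk4, and the spindle checkpoint kinases are Bub1, Bub1b and Ttk. Nek2 acts at the centrosome, and Chek1 and Wee1 hold the cell before mitosis. RNA was sequenced in 15 mouse samples, 3 in each of 5 groups. 46LCNEC_cell is an adherent cell line from a lung tumor raised by intratracheal Ad-CMVcre, an adenovirus whose CMV promoter drives Cre broadly in infected lung cells. 57SCLC_cell is a line that grows as aggregates in suspension, from a tumor raised by Ad-K5cre, in which the keratin K5 promoter directs Cre to basal cells. Both donors were QKO mice, which bear floxed tumor suppressor alleles, Rb1 and Trp53 among them by the design of the model, with a null Rbl1 gene. 46LCNEC_allo and 57SCLC_allo are subcutaneous tumors that the same lines formed in immunocompetent QKO mice, and Lung is whole normal lung of littermates of these recipients. Each tumor type is therefore represented by 1 cell line, sampled as 3 dishes or flasks and as 3 tumors, and the p-values measure the spread between these samples only. The Ad-CMVcre donors were infected as adults. The age of the Ad-K5cre donors, of the recipients and of the recipients' littermates is not given in the sources used here.

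Aurora A builds spindle poles at the centrosome, and Aurora B corrects faulty attachments at the centromere as part of the chromosomal passenger complex. PLK1 drives entry into and passage through mitosis, PLK4 starts centriole duplication, and NEK2 separates the centrosomes. BUB1, BUBR1 (the product of Bub1b) and MPS1 (the product of Ttk) delay anaphase until every kinetochore is attached. CHK1 and WEE1 restrain CDK1 when DNA is damaged or replication is stalled. Loss of the retinoblastoma family releases the E2F factors that drive many genes of DNA replication and mitosis, and several of these kinases are studied as drug targets in small cell lung cancer.

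The depth was between 9480244 and 44876572 reads per sample with a median of 26502525. Values are normalized counts, that is, reads counted per gene divided by the size factor of the sample. All replicate pairs differed by more than counting noise, with a chi-square per degree of freedom from 2.80, for flasks A and B of 57SCLC_cell, to 144, for flasks A and C. Flask C thus stood apart within its group. The pairs of 46LCNEC_allo tumors were at 92.6 to 133, so these tumors also differed widely from each other. Against the labels, the summed level of 6 neuroendocrine markers was 45892 to 69243 in the 6 57SCLC samples but 20 to 55.3 in the 6 46LCNEC samples, below the 152 to 163 of Lung, and 2 of the 6 markers in 46LCNEC_cell and 1 of 6 in 46LCNEC_allo had a mean of at least 10. These are RNA values. The paper reports protein staining for NCAM, SSTR2 and CGRP in its cell lines, and for chromogranin A in subcutaneous LCNEC tumors. Of these proteins, only chromogranin A has its gene (Chga) among the 6 markers. The name LCNEC is used here as the label of that line. The sum of 5 alveolar and airway markers was 343554 to 450751 in Lung and 110 to 205 in all other samples. Rb1, Rbl1 and Trp53 all had counts in every group. Rb1 was at 291 ± 41.2 in Lung, at 85.7 ± 17.2 in the cells and 236 ± 53.4 in the allografts of 46LCNEC, and at 414 ± 314 in the cells and 374 ± 117 in the allografts of 57SCLC (SD, n = 3), and a count over all exons does not show whether an allele was recombined.

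The sequences around the start sites are shown because mitotic genes share promoter elements. The CHR element is bound by the DREAM and MuvB complexes, often with a CCAAT box nearby that binds NF-Y, and the E2F core is bound by E2F factors. RefSeq promoter windows (build GRCm38.p6) of 250 bases before and 50 bases from the annotated start were available for 8 members, and each was found exactly once in GRCm39, to which the coordinates refer. The CHR was searched as the letters TTTGAA and as the letters TTCGAA. The CCAAT box was searched by the 5 letters of its name. The E2F core was searched as the letters TTCCCGC, also as the letters TTGGCGC and finally as the letters TTCGCGC. Both strands were read. A CCAAT box on the opposite strand and the form TTGGCGC of the E2F core can share letters, which happened in none of the 8 windows. A CHR was present in 5 of 8 member windows (Aurka, Plk1, Bub1, Bub1b and Ttk) and in 19.2% of 32851 windows of all genes. A CCAAT box was present in 6 of 8 (these 5 and Nek2) and in 37.4% of all windows. An E2F core was present in 2 of 8 (Plk4 and Chek1) and in 8.07% of all windows. All 5 windows with a CHR also held a CCAAT box, a pair found in 7.52% of all windows. In each of the 5, a CHR began after the start site, at position 33 in Aurka, 31 in Plk1, 15 in Bub1, 41 in Bub1b and 8 in Ttk, counting the start site as 1. The 30 bases around these matches and around the nearest match of the other 3 members follow, 5′ to 3′ on the strand of the gene, with the match in capitals. The Ttk, Plk4 and Chek1 matches lie on the opposite strand.
Aurka, CHR: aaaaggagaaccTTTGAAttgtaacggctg
Plk1, CHR: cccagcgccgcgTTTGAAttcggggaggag
Bub1, CHR: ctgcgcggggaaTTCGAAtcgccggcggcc
Bub1b, CHR: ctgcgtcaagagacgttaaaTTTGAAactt
Ttk, CHR: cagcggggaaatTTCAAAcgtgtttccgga
Nek2, CCAAT box: ccttcgctgtggaCCAATagaatgcgaggc
Plk4, E2F core: aaaagactttctGCGGGAAgccaaagccct
Chek1, E2F core: cagcatgacgcaagcaggttttgGCGGGAA
The stretches lie at chr2:172212441-172212470 (Aurka, minus strand), chr7:121758676-121758705 (Plk1, plus), chr2:127673748-127673777 (Bub1, minus), chr2:118428712-118428741 (Bub1b, plus), chr9:83716737-83716766 (Ttk, plus), chr1:191553579-191553608 (Nek2, plus), chr3:40754254-40754283 (Plk4, plus) and chr9:36637905-36637934 (Chek1, minus). The matches lie in untranslated exon sequence of the GENCODE M39 annotation, except that of Plk4, which lies 120 bases upstream of its RefSeq start site and upstream of the gene in that annotation. A match is a description of letters and was not tested as a binding site.

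**Figure D1:**
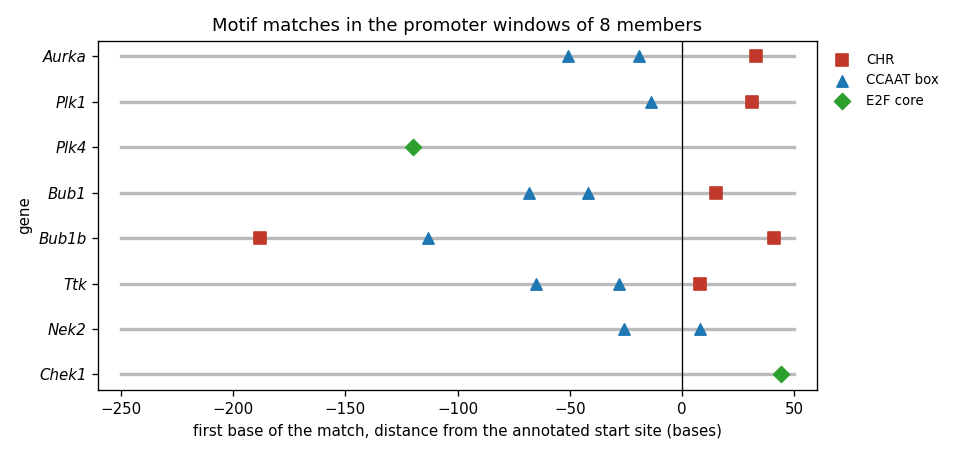
First base of each motif match in the RefSeq windows of 8 members, as distance in bases from the annotated start site (0 line), with squares for the CHR, triangles for the CCAAT box and diamonds for the E2F core. A CHR lies after the start site in Aurka, Plk1, Bub1, Bub1b and Ttk, and the CCAAT boxes of these 5 genes lie before it.

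Wee1 (ENSMUSG00000031016, chr7:109721148-109747101), whose product holds CDK1 inactive, was listed at 0 in all 15 samples. Bub3 and Tk1, genes that dividing cells use, were also listed at 0 in all 15 samples, so the listing of Wee1 gives no level. The other 9 members had reads in every sample, with a lowest count of 39 reads, for Chek1 in Lung sample CT5, and all 9 passed the filter on low values in every comparison.

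The first question was how the kinases differ between the tumor cells and normal lung. All 9 measured members were up-regulated in each of the 4 groups over Lung, in cells as in tumors, and the median over the 9 was 4.55 (46LCNEC_cell), 3.69 (46LCNEC_allo), 4.46 (57SCLC_cell) and 4.36 (57SCLC_allo) on the log2 scale. A gene was called at an adjusted p of at most 0.01 and at least a 2-fold change (limma). By this rule 20.6%, 13.4%, 21.1% and 18.9% of all genes tested were higher than Lung in these 4 groups, in that order, and the median of all genes was -0.23, -0.14, -0.12 and -0.09. The 9 proliferation genes used further below were likewise all called higher in each group, with medians of 4.46, 3.34, 4.12 and 3.75. Relative to their mean, member differences from Lung ran from -0.75 (Nek2) to 1.05 (Bub1b) in 46LCNEC_cell. They ran from -1.15 (Nek2) to 1.32 (Bub1b) in 46LCNEC_allo, -0.98 (Plk4) to 1.40 (Chek1) in 57SCLC_cell and -0.87 (Nek2) to 1.34 (Chek1) in 57SCLC_allo. No sample of the 4 groups overlapped Lung for any of the 9 members: the lowest tumor or cell sample was between 3.44 times (Nek2) and 18.2 times (Bub1b) the highest Lung sample. Of 19626 genes with at least 10 normalized counts in 3 or more samples, 14.8% likewise had all 12 tumor and cell samples above the 3 of Lung. The 4 comparisons share the same 3 Lung samples and are not independent of each other. In a whole tissue, fewer dividing cells and less RNA of these genes per cell cannot be told apart.

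**Figure D2:**
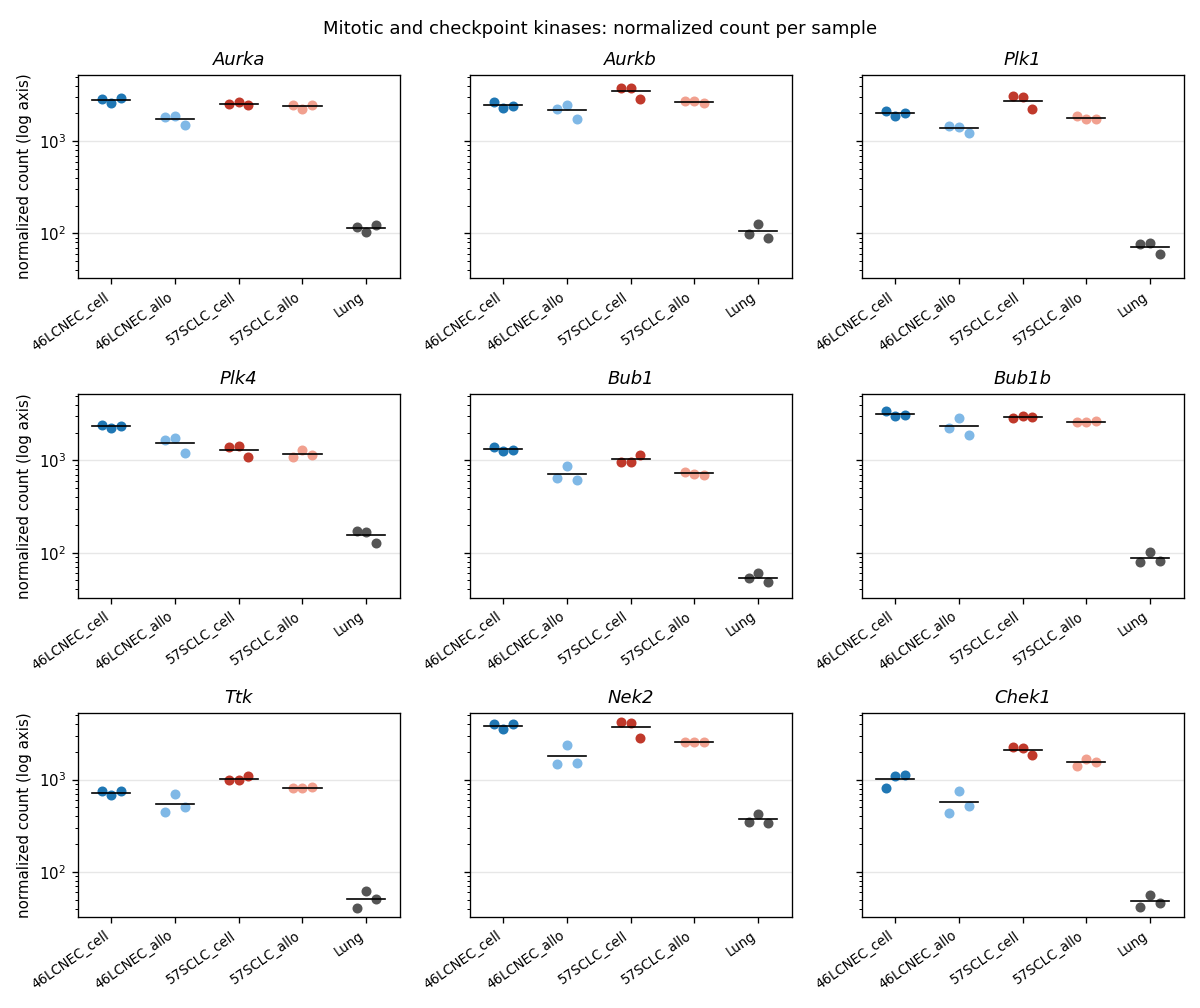
Normalized counts of the 9 members with reads (log axis) in each of the 15 samples, with points for samples and black lines for group means. For each gene, all 12 cell and allograft samples lie above the 3 Lung samples, and Chek1 has both 57SCLC groups above both 46LCNEC groups.

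Among the Aurora kinases, Aurka (chr2:172198109-172212849, minus strand) had 2885, 2607 and 2911 normalized counts in the cells of 46LCNEC and 1826, 1880 and 1489 in their allografts, 2549, 2631 and 2460 in the cells of 57SCLC and 2454, 2245 and 2442 in their allografts, and 118, 105 and 123 in Lung. The 46LCNEC allografts were the lowest tumor group and overlapped no other group. In the GENCODE M39 annotation its exons share 38.6% of their bases with other genes (Cstf1, Fam210b and Gm75386). The strand setting of the counting is not given in the sources used here, so how reads in these bases were assigned is not known. Its log2 fold change over Lung was 4.59 ± 0.10 in the cells and 3.89 ± 0.15 in the allografts of 46LCNEC, and 4.46 ± 0.10 in the cells and 4.36 ± 0.10 in the allografts of 57SCLC (SE).

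Aurkb (chr11:68936467-68944764, plus strand) had 2693, 2304 and 2430 normalized counts in the cells of 46LCNEC and 2237, 2478 and 1750 in their allografts, 3769, 3811 and 2874 in the cells of 57SCLC and 2717, 2719 and 2617 in their allografts, and 99.4, 128 and 90.1 in Lung. The 57SCLC cells were highest, with flask C nearest to the allografts, and the other 3 tumor groups formed an overlapping series. Over Lung its log2 fold change was between 4.34 ± 0.20 in 46LCNEC_allo and 5.03 ± 0.17 in 57SCLC_cell.

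Of the Polo-like kinases, Plk1 (chr7:121758646-121769108, plus strand) had 2139, 1872 and 2044 normalized counts in the cells of 46LCNEC and 1474, 1438 and 1222 in their allografts, 3058, 2989 and 2234 in the cells of 57SCLC and 1889, 1734 and 1757 in their allografts, and 76.2, 79.8 and 59.7 in Lung. The 57SCLC cells were again the highest group and the 46LCNEC allografts the lowest of the tumor groups, while 46LCNEC_cell and 57SCLC_allo overlapped. Over Lung its log2 fold change was between 4.25 ± 0.18 in 46LCNEC_allo and 5.24 ± 0.17 in 57SCLC_cell.

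Plk4 (chr3:40754427-40772633, plus strand) followed another order. It had 2437, 2248 and 2335 normalized counts in the cells of 46LCNEC and 1675, 1769 and 1206 in their allografts, 1396, 1429 and 1099 in the cells of 57SCLC and 1084, 1284 and 1146 in their allografts, and 173, 167 and 126 in Lung. The 46LCNEC cells stood above every other sample, and the other 3 tumor groups overlapped their neighbors. Over Lung its log2 fold change was 3.92 ± 0.13 in 46LCNEC_cell and 3.30 ± 0.21 in 46LCNEC_allo, against 3.07 ± 0.16 in 57SCLC_cell and 2.92 ± 0.15 in 57SCLC_allo. Its exons share 15.3% of their bases with Mfsd8.

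Of the spindle checkpoint kinases, Bub1b (chr2:118428684-118472076, plus strand) had 3410, 3009 and 3107 normalized counts in the cells of 46LCNEC and 2223, 2906 and 1868 in their allografts, 2880, 3013 and 2988 in the cells of 57SCLC and 2609, 2583 and 2674 in their allografts, and 79.2, 103 and 80.8 in Lung. The cells of both lines overlapped, as did the allografts. Its log2 fold change over Lung was between 4.71 ± 0.21 in 46LCNEC_allo and 5.17 ± 0.12 in 46LCNEC_cell, the highest of the members in both 46LCNEC groups.

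Bub1 (chr2:127643036-127673806, minus strand) had 1388, 1257 and 1313 normalized counts in the cells of 46LCNEC and 653, 865 and 613 in their allografts, 968, 973 and 1157 in the cells of 57SCLC and 754, 709 and 702 in their allografts, and 53.1, 59.8 and 48.0 in Lung. Both cell groups lay above both allograft groups, which overlapped each other. Ttk (chr9:83703392-83755037, plus strand) had 744, 674 and 754 normalized counts in the cells of 46LCNEC and 442, 698 and 510 in their allografts, 988, 985 and 1091 in the cells of 57SCLC and 819, 808 and 831 in their allografts, and 41.1, 61.8 and 50.3 in Lung. Here both 57SCLC groups lay above both 46LCNEC groups. The log2 fold changes over Lung ran from 3.69 ± 0.21 in 46LCNEC_allo to 4.60 ± 0.13 in 46LCNEC_cell for Bub1, and from 3.40 ± 0.26 in 46LCNEC_allo to 4.31 ± 0.17 in 57SCLC_cell for Ttk.

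Nek2 (chr1:191553548-191565162, plus strand) had 4010, 3568 and 3971 normalized counts in the cells of 46LCNEC and 1462, 2403 and 1510 in their allografts, 4166, 4123 and 2836 in the cells of 57SCLC and 2581, 2547 and 2532 in their allografts, and 348, 425 and 341 in Lung. The cells of both lines overlapped and lay above both allograft groups. Its level in Lung was the highest of the members, also per kilobase of exon (77.3 ± 9.69 normalized counts per kilobase, SD, n = 3, against 4.51 ± 0.682 for Chek1, the lowest, to 29.6 ± 5.48 for Aurkb). Its rise was the smallest of the members in 46LCNEC_cell, 46LCNEC_allo and 57SCLC_allo and the smallest but Plk4 in 57SCLC_cell, with a log2 fold change of 3.38 ± 0.10, 2.24 ± 0.22, 2.79 ± 0.10 and 3.30 ± 0.17, in that order of groups. Of its exon bases, 11.6% are shared with Gm38037.

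Chek1 (chr9:36614487-36638361, minus strand) had 809, 1103 and 1130 normalized counts in the cells of 46LCNEC and 440, 746 and 518 in their allografts, 2271, 2227 and 1848 in the cells of 57SCLC and 1408, 1683 and 1551 in their allografts, and 41.9, 55.9 and 45.7 in Lung. None of the 5 groups overlapped its neighbor in this order: 57SCLC_cell, 57SCLC_allo, 46LCNEC_cell, 46LCNEC_allo and Lung. Chek1 had the largest rise of the members in 57SCLC_cell (log2 fold change 5.44 ± 0.15) and in 57SCLC_allo (4.99 ± 0.16), but 4.37 ± 0.18 in 46LCNEC_cell and 3.52 ± 0.26 in 46LCNEC_allo.

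**Figure D3:**
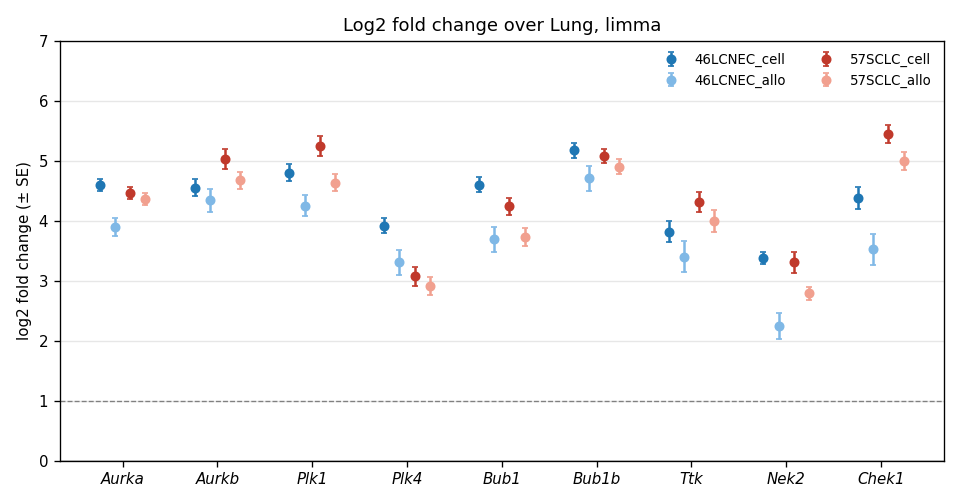
Log2 fold change over Lung with its SE (limma, 6 samples per comparison) for the 9 members in the 4 tumor and cell groups, which share the 3 Lung samples. The dashed line marks a log2 fold change of 1, and all 36 values lie above it, from 2.24 (Nek2 in 46LCNEC_allo) to 5.44 (Chek1 in 57SCLC_cell).

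The partners of these kinases rose with them. Of 11 partners and cofactors, 11 were up-regulated over Lung in 46LCNEC_cell, 46LCNEC_allo and 57SCLC_cell and 10 in 57SCLC_allo, with medians of 4.87, 4.52, 4.73 and 4.48. Ccnb1, the cyclin partner of CDK1, had log2 fold changes of 6.41 and 5.04 in the cells and allografts of 46LCNEC and of 7.08 and 6.29 in those of 57SCLC. Of 10 further spindle checkpoint genes tested, 8, 8, 9 and 8 rose in the same order of groups, with medians of 4.34, 3.89, 4.29 and 4.01. Knl1, the kinetochore scaffold on which the BUB proteins assemble, rose by 5.51 in 57SCLC_cell and 5.03 in 57SCLC_allo. Of 7 centriole duplication genes, 4, 4, 6 and 6 rose, led by Stil, the activator of PLK4, with 5.97, 4.61, 5.42 and 5.02. Of 9 genes of the G2/M switch, 5, 5, 6 and 5 rose, led by Cdc25c, the phosphatase that opposes WEE1, with 6.13, 4.86, 6.31 and 5.92. Of 8 other mitotic kinases tested, 4, 4, 5 and 4 rose, led by Melk and Pbk.

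Upstream of CHK1, ATR is the kinase that responds to stalled replication. Of 11 genes of the ATR to Chk1 checkpoint, 6 rose in the cells and 3 in the allografts of 46LCNEC, and 6 rose in the cells and 4 in the allografts of 57SCLC, with medians of 1.26, 0.77, 1.12 and 0.81. Clspn, the adaptor through which ATR activates CHK1, led in all 4 groups with log2 fold changes of 5.75, 4.60, 5.28 and 4.52.

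Other kinases of the same families, some of which also act in mitosis, moved in both directions. Of 14 family relatives tested, 2 rose and 4 fell in each of the 46LCNEC groups. Nek6, a mitotic kinase of the NEK family, was 1 of the 2 that rose, by 1.75 in 46LCNEC_cell and 1.38 in 46LCNEC_allo. In 57SCLC it was at -0.75 in cells and -0.03 in allografts, not called. Nek7 was at 0.11 and -0.21 in 46LCNEC cells and allografts, and called lower in those of 57SCLC (-1.45 and -1.65). Nek9 was at -0.83, -0.38, -0.81 and -1.04 in the 4 groups, called in 57SCLC_allo only. In 57SCLC_cell 3 of 15 rose and 6 fell, and in 57SCLC_allo 3 of 15 rose and 7 fell. The medians over these relatives were -0.18, -0.31, -0.75 and -0.81. No share of all genes called lower than Lung is given here, so the falls are counts only. Of all genes tested, 48.4%, 39.6%, 45.3% and 42.2% had all samples of the group below all of Lung, in that order. Nek5 had 380, 517 and 431 normalized counts in Lung and no more than 8.86 in any other sample. Nek11 likewise had 211 to 243 in Lung and 14.6 at most elsewhere. Chek2, the checkpoint kinase downstream of ATM, rose in all 4 groups, by 1.55, 2.05, 2.20 and 2.14. The calls of all lists kept their direction under library size and upper quartile scaling.

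The difference between the lines was then compared, in culture and in tumors. Chek1 was the only member called in either setting, and it was higher in 57SCLC in both: by 1.07 ± 0.15 in cells (adjusted p = 0.000239) and by 1.48 ± 0.21 in allografts (adjusted p = 0.00103). All 3 samples of 57SCLC lay above all 3 of 46LCNEC in each setting, as they did for 40.3% of all genes tested in cells and 33.6% in allografts. Of all genes tested, 23.9% were called higher and 22.2% lower in 57SCLC_cell than in 46LCNEC_cell, and 16.1% higher and 14.2% lower in 57SCLC_allo than in 46LCNEC_allo, so 1 of 9 members called is fewer than the share of all genes in both settings. No member was called lower by limma, edgeR or DESeq2, although 2 were lower at an unadjusted p under 0.05 in cells and 0 in allografts. At that p, in either direction, 79.2% of all genes passed in cells and 61.2% in allografts. Without dish A of 46LCNEC_cell, which held the lowest Chek1 of that group, the Chek1 difference in cells was 0.92 (adjusted p = 0.000466), under the fold threshold.

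Plk4 pointed the other way. It was lower in 57SCLC_cell by 0.85 on the log2 scale (SE 0.11, adjusted p = 0.000174), with no overlap, which is under the fold threshold, and the difference in allografts was -0.39 ± 0.17 (adjusted p = 0.0889). Ttk, Aurkb and Bub1 also passed the p threshold in cells but not that of fold, with differences of 0.50 ± 0.09, 0.48 ± 0.12 and -0.36 ± 0.09. Plk1 differed by 0.44 ± 0.13 (adjusted p = 0.0139). For Aurka (-0.14 ± 0.07), Bub1b (-0.10 ± 0.07) and Nek2 (-0.07 ± 0.15) the difference between the cells did not pass the p threshold, and under library size scaling, which moved the median of all genes from 0.00 to 0.24, these 3 differences were 0.10, 0.13 and 0.16. Without flask C of 57SCLC_cell, the difference was 0.62 for Aurkb, 0.58 for Plk1, -0.73 for Plk4, 1.16 for Chek1 and 0.11 for Nek2.

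In allografts, the members other than Chek1 differed by -0.39 (Plk4) to 0.60 (Ttk) between the lines, with adjusted p-values from 0.0143 (Aurka) to 0.848 (Bub1). Against the mean of 9 proliferation genes in each sample (Mki67, Top2a, Rrm2, Tyms, Pcna and 4 Mcm genes), which was 0.08 lower in 57SCLC than in 46LCNEC cells and 0.27 higher in 57SCLC than in 46LCNEC allografts on the log2 scale, Chek1 remained higher in 57SCLC by 1.15 in cells, and in allografts it was at -1.43 in 57SCLC and -2.63 in 46LCNEC. Plk4 was lower by this measure, with differences of -0.77 in cells and -0.66 in allografts. Neither overlapped between the lines in either setting. On this scale Ttk (0.57), Aurkb (0.56) and Plk1 (0.52) were also higher in the 57SCLC cells without overlap, while in allografts the lines overlapped for these 3. Of all genes tested, 79.7% in cells and 64.2% in allografts did not overlap on this scale.

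**Figure D4:**
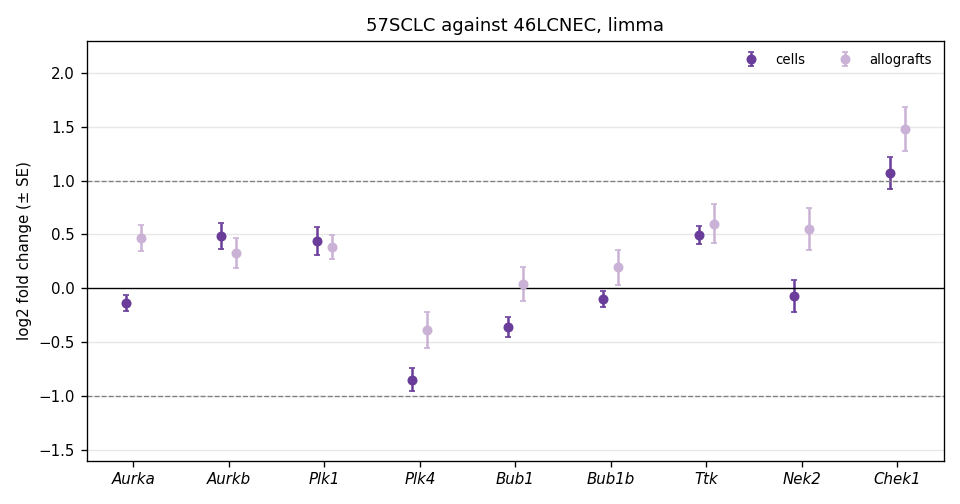
Log2 difference of 57SCLC from 46LCNEC with its SE (limma, 6 samples per comparison) for the 9 members, in cells and in allografts, with dashed lines at -1 and 1. Chek1 alone lies above 1 in both settings (1.07 and 1.48), and Plk4 is the lowest in both (-0.85 and -0.39).

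The lists of other genes around the kinases were compared between the lines in the same way. Of 11 genes of the ATR to Chk1 checkpoint, 0 were higher and 1 lower (Rad9a, a subunit of the clamp that recruits the checkpoint, -1.39) in 57SCLC_cell, and none was called in allografts by limma, with 3 higher and 0 lower at an unadjusted p under 0.05. Of 7 centriole duplication genes, Ccp110, which caps the centriole, was higher in 57SCLC by 1.97 in cells and 2.14 in allografts, and no other was called. Of 9 genes of the G2/M switch, Arpp19 and Cdc25b were higher in 57SCLC_cell (1.33 and 1.04) and Cdc25c in 57SCLC_allo (1.06). Of the 11 partners, none was called in cells by limma, with 2 higher and 4 lower at an unadjusted p under 0.05, and Ccnb1 and Bora, the PLK1 activator, were higher in 57SCLC_allo (1.25 and 1.10). Of 8 other mitotic kinases, Cdc7, which fires replication origins, was higher in 57SCLC_cell by 1.34. Of 10 further spindle checkpoint genes, Mad2l1bp, which helps to silence the checkpoint, was lower there by 1.03 on the log2 scale.

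Of 13 family relatives tested, 2 were higher and 6 lower in 57SCLC_cell, and 3 were higher and 4 lower in 57SCLC_allo. Plk5, a Polo-like relative known from neurons and glia, had 2046, 1938 and 2200 normalized counts in 57SCLC_cell and 2281, 2709 and 2587 in 57SCLC_allo, against 0 to 2.31 in all 6 46LCNEC samples and 62.8, 98.7 and 104 in Lung. Plk2, a stress-induced Polo-like kinase, had 1038, 1209 and 1410 in 46LCNEC_cell and 156, 171 and 132 in 57SCLC_cell, a log2 difference of -2.99 ± 0.15. In the allografts Plk2 differed by -1.54 ± 0.25, and it was higher in 57SCLC_allo than in 57SCLC_cell by 2.44 ± 0.15. Plk3 was named after its values were seen, as the third Polo-like relative: it was lower in 57SCLC, with log2 differences of -2.54 in cells and -1.12 in allografts. Wee2, the oocyte form of WEE1, was at 33.3 to 35.6 in 57SCLC_cell and at 4.42 or less in 46LCNEC_cell.

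The last comparison set each tumor against its own line in culture. All 9 members had a lower mean in 46LCNEC_allo than in 46LCNEC_cell, and Nek2 was the only one called, with -1.14 ± 0.19 (adjusted p = 0.00249). Bub1 (-0.91 ± 0.15), Aurka (-0.70 ± 0.12) and Plk1 (-0.55 ± 0.11) passed the p threshold but not that of fold. Chek1 (-0.85 ± 0.23), Plk4 (-0.61 ± 0.16), Bub1b (-0.47 ± 0.16), Ttk (-0.42 ± 0.18) and Aurkb (-0.21 ± 0.15) did not pass the p threshold. Of all genes, 8.45% were called lower and 14.4% higher, so 1 of 9 members is near the share of all genes. Without dish A, B or C the Nek2 difference was -1.11, -1.19 or -1.12 and its adjusted p was 0.0153, 0.0111 or 0.0151, above the threshold of 0.01, while it was called without any 1 of the 3 tumors. Without tumor 319, which had the highest value of the 3 tumors for 8 of the members, Bub1 (-1.06), Chek1 (-1.07) and Nek2 were called.

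All 9 members also had a lower mean in 57SCLC_allo than in 57SCLC_cell, but none was called by limma, edgeR or DESeq2, against 2.29% of all genes called lower and 14.4% higher. The differences ran from -0.10 ± 0.08 (Aurka) to -0.61 ± 0.13 (Plk1), and 7 were lower at an unadjusted p under 0.05, which 49.4% of all genes passed in either direction. Plk1 and Bub1 (-0.51 ± 0.10) passed the adjusted p threshold but not that of fold, with adjusted p-values of 0.00587 and 0.00462. In flask C, Nek2 was at 0.684 times the mean of flasks A and B, Plk1 at 0.739 times and Aurkb at 0.758 times, while Bub1 was at 1.19 times. Without this flask, the allograft difference was -0.70 for Nek2, -0.75 for Plk1 and -0.50 for Aurkb.

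**Figure D5:**
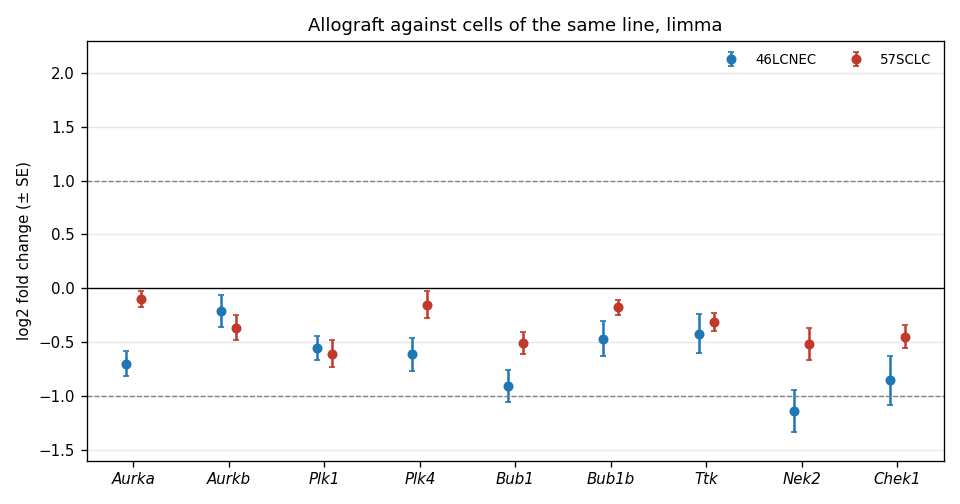
Log2 difference of the allografts from the cells of the same line with its SE (limma, 6 samples per comparison) for the 9 members, with dashed lines at -1 and 1. All 18 values lie below 0, and Nek2 in 46LCNEC (-1.14) is the only one below -1.

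Markers of cell types that the host can supply were compared between cells and allografts. The summed level of 5 leukocyte markers was 319 to 356 in 46LCNEC_cell and 16497 to 38685 in 46LCNEC_allo, and 280 to 309 in 57SCLC_cell and 7711 to 12830 in 57SCLC_allo, with 5 of 5 markers at a mean of at least 10 in both allografts. The sum of 4 endothelial markers was 370 to 454, 4821 to 8323, 63.3 to 88.6 and 2415 to 3356 in the same order of groups. The sum of 3 fat markers was 3.08 to 7.73, 0 to 309, 2.18 to 6.77 and 1.42 to 14.8, overlapping in both lines. That of 3 skeletal muscle markers was 14.4 to 23.1, 19.9 to 78.9, 98.9 to 112 and 114 to 196. Acta1, 1 of these 3, was listed at 0 in all 15 samples, so the muscle sum rests on Ckm and Mylpf. The sum of 4 fibroblast markers was 29195 to 32077 in the cells and 275446 to 586554 in the allografts of 46LCNEC, and 21.7 to 26.7 in the cells and 23472 to 35733 in the allografts of 57SCLC. In 46LCNEC_cell, cultured without host tissue, this sum lay above the 16179 to 19168 of Lung. Col1a1 (mean 20960 against 2826 in Lung) and Col3a1 (8276 against 4496) carried this. Dcn (11.1 against 2535) and Pdgfra (1190 against 8146) were lower in 46LCNEC_cell than in Lung. In that line Col1a1 and Col3a1 are therefore not markers of host cells alone. The part of host cells in the lower kinase levels of the allografts was not tested.

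The mean of 9 proliferation genes was 0.74 lower in 46LCNEC_allo than in 46LCNEC_cell and 0.39 lower in 57SCLC_allo than in 57SCLC_cell, on the log2 scale. Relative to it, the differences of allografts from cells ran from -0.40 to 0.52 in 46LCNEC and from -0.22 to 0.29 in 57SCLC. In 46LCNEC, 6 of the 9 members overlapped between allografts and cells on this relative scale. Aurkb (0.52) and Bub1b (0.27) were relatively higher in the allografts and Nek2 (-0.40) relatively lower, without overlap. In 57SCLC, 6 of 9 overlapped, and Aurka (0.29), Plk4 (0.24) and Bub1b (0.21) were relatively higher in the allografts without overlap. Of all genes tested, 71.9% in 46LCNEC and 61.7% in 57SCLC did not overlap on this scale. These relative values are a description and were not tested.

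Whether the line difference changed between culture and tumor was tested with an interaction term over 12 samples. No member was called by limma, edgeR or DESeq2, against 10.8% of all genes called higher and 6.78% lower, and 3 members were higher at an unadjusted p under 0.05, which 47.3% of all genes passed in either direction. The values ran from -0.15 ± 0.20 (Aurkb) to 0.62 ± 0.26 (Nek2). Aurka had the smallest adjusted p (0.00551), with 0.60 ± 0.14. For Chek1 the interaction was 0.41 ± 0.27 (adjusted p = 0.254), so its difference between the lines was not shown to be larger in tumors than in culture.

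Per kilobase of exon, the levels in 46LCNEC_cell were 801 ± 50.9 normalized counts for Nek2, 717 ± 43.2 for Aurka, 706 ± 47.4 for Plk1, 694 ± 55.5 for Aurkb and 687 ± 45.2 for Bub1b (SD, n = 3), then 290 ± 14.4 for Bub1, 287 ± 11.6 for Plk4, 118 ± 7.08 for Ttk and 95.6 ± 16.8 for Chek1. In 57SCLC_cell, Aurkb (976 ± 148), Plk1 (966 ± 160) and Nek2 (772 ± 157) led, and Plk4 (161 ± 22.3), Ttk (166 ± 9.78) and Chek1 (199 ± 21.9) were the lowest. The exon length of Chek1 (10606 bases) includes a block of 7240 bases, and a gene whose transcripts use only part of its annotated exons has too low a value on this scale. Reads across exon junctions may also be lost in alignment, and the members differ in exon blocks, from 6 in Aurkb to 26 in Bub1b. The order of different genes on this scale is therefore approximate.

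Genes with the profile most like the mean of the 9 members were sought among 15072 genes with a mean of at least 50 normalized counts, by Pearson's r of log2 values over the 15 samples. The 8 closest outside the members were Spag5 (0.999), Tpx2 (0.998), Jpt2, Ccnb2, Depdc1a, Kif2c and Cdca5 (0.997 each) and Fignl1 (0.996). Tpx2 activates Aurora A on the spindle, Spag5 is a spindle and kinetochore protein, and Kif2c is a kinesin regulated by Aurora B. All points share the gap between the 3 Lung samples and the other 12, which sets most of these values.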

How the data were processed

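Poly-A selected RNA was sequenced in pairs of reads. Alignment by the authors was to GRCm39 with Rbowtie2, featureCounts assigned reads to genes of GENCODE M27, and counts were divided by DESeq2 size factors, per the paper's methods and the submitters' processing notes. The deposited values are a signal (normalized counts). Rbowtie2 is not a spliced aligner, so reads across exon junctions may be lost. The strand setting is not given in the sources used here. Each sample's values above 0 were checked against 1 step and came out whole (100%, within 0.01 reads), and division by it recovered the reads.

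Groups were compared with the two-sided test of limma 3.58.1 (R 4.3.3), applied to log2(normalized count + 1) of the 6 samples compared (12 for the interaction), with genes kept that reached 10 normalized counts in 3 or more samples. Fold changes are on this scale and understate those of low genes. A call needed a p of 0.01 or less after Benjamini-Hochberg adjustment over all genes tested, and a log2 fold change of 1 or more in size. edgeR 4.0.16 and DESeq2 1.42.0 on the recovered reads, other pseudocounts, filters and scalings, all 15 samples in 1 fit, a block and each sample left out were alternatives. The limma procedure was tested on simulated data. Exon lengths came from the GENCODE M39 annotation. Tables were made in Python 3.11.15 (pandas 2.3.3, numpy 2.4.6) and plots in matplotlib 3.10.9.

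The members, lists and markers were chosen with earlier results of these data known. From each list, up to 2 called genes with the largest change and up to 2 against the list's main direction may be named per comparison, with the 8 genes of closest profile. A few other genes were named after their values were seen (Plk3, Nek7, Nek9, Nek11, Knl1, Chek2 and Wee2 where outside this rule, and Rb1, Bub3 and Tk1). So were the fibroblast and skeletal muscle markers named singly.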

Additional observations from a re-analysis of the deposited data

Results flagged for a closer look

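For Aurka, which encodes Aurora A, the difference of 57SCLC from 46LCNEC was 0.60 higher (log2, SE 0.14, adjusted p = 0.00551 by limma over 12 samples) in allografts than in cells, and this test of the difference brought it here. It was -0.14 in cells and 0.47 in allografts. The change is under the 2-fold threshold and was not called. Relative to the mean of the 9 proliferation genes, the lines differed in Aurka by -0.06 in cells and 0.19 in allografts and overlapped in both. Over 20 alternatives its adjusted p was between 0.000767 and 0.018, with 13 at or under 0.01. Of the exon bases of Aurka, 38.6% are shared with other genes, and the part of reads in these bases in this difference was not tested.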

How the results depend on the processing

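Of 1197 member fold changes recomputed under the alternatives, 1182 kept their direction and call, among them all 504 over Lung. Library size scaling turned the differences between the lines in cells of Aurka (0.10), Bub1b (0.13) and Nek2 (0.16), none of them called, and gave 4784 genes higher and 3169 lower in 57SCLC_cell than in 46LCNEC_cell, against 4043 and 3756, and 3580 genes higher and 1957 lower in 57SCLC_allo than in 46LCNEC_allo, against 2821 and 2491. On the recovered reads, edgeR called 4118 genes higher and 3682 lower in 57SCLC_cell than in 46LCNEC_cell, and 2749 higher and 2448 lower in 57SCLC_allo than in 46LCNEC_allo. Leaving out 1 sample gave -0.17 to 0.11 for Nek2 between the cells and -0.06 to 0.19 for Bub1 between the allografts, and in the interaction -0.20 to 0.02 for Plk1 and -0.04 to 0.29 for Ttk. It gave 0 to 1 members higher in 57SCLC_cell than in 46LCNEC_cell, and 769 to 1595 genes and 0 to 3 members lower in 46LCNEC_allo than in 46LCNEC_cell, against 1383 and 1. The cause was not tested. Dishes and flasks are lettered A to C in both lines. With the letter as a block, 4041 genes were higher and 3756 lower in 57SCLC_cell than in 46LCNEC_cell, against 4043 and 3756, and the 1 member higher was again Chek1. Same-letter deviations correlated at 0.055, -0.064 and 0.005, and not every sample correlated best with its own letter. With 3 samples per line, these values cannot decide whether a letter marks a shared batch. Of 45 pairs of a member with reads and a group, the spread between samples was above the counting noise of the recovered reads in 38. It was at or below it for 5 members in 57SCLC_allo and 2 in Lung, where depth limits what can be seen.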
